A study of Homo sapiens with 6 samples.

Results

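The genes described here encode the constitutive proteasome: the 20S core, the 19S cap, activators and an inhibitor, and the factors that assemble core and cap. They were chosen by symbol, as 40 genes without the subunits that interferon gamma induces, and every probe whose platform annotation carried one of these symbols was taken. Of the 40 genes, 36 were named by 55 of the 48801 probes. A gene counted as measured when it had a probe with detection p-values under 0.01 on 3 or more of the 6 arrays, whatever their group. By that rule 35 genes were measured, by 49 of the 13713 probes kept, and each of the 49 lay above background on all 6 arrays. PSMA7, PSMC5, PSMD7 and PSMD13 had no probe under these symbols and were not analysed here, and the only probe of PSMF1, the proteasome inhibitor PI31, was above background on no array.

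The cells were IGROV-1, an established human ovarian carcinoma line, grown for 24 h in medium and cell-free ascites at equal volumes, the ascites coming from tumour-bearing mice. Donors carried IGROV-1 cells in the peritoneum and were treated from day 10 or 11, either with saline (3 arrays) or with CpG oligodeoxynucleotide at 20 µg per mouse (3 arrays), a short DNA that is a ligand of Toll-like receptor 9. Both groups therefore received tumour ascites and differ in what the donor mouse was given; the labels allow a single dose or daily doses and do not say which applied to which array. The strain of the mice is not stated, and no untreated culture was analysed here. The study's design gives 3 mice per group, but whether each array stems from a separate mouse or culture is not stated, so the p-values reflect the spread among these samples, and that spread may be technical. Total RNA of whole cultures was measured, so fewer cells with a transcript and less of that transcript per cell cannot be told apart. Arrays were normalized to one another, so the values do not show the number of cells.

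The proteasome degrades proteins that carry ubiquitin chains. Its core is a barrel of stacked rings in which outer rings of alpha subunits gate the entrance and inner rings of beta subunits hold the catalytic sites. The cap binds the ubiquitin chain, removes it, unfolds the substrate with a ring of ATPases and threads it into the core. When proteasome activity falls short, the transcription factor encoded by NFE2L1 raises transcription of the subunit genes together, through antioxidant response elements.

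The lowest p-values among the proteasome genes were those of PSMC6, which encodes an ATPase of the 19S cap and had lower values in CpG ascites. In CpG ascites against saline ascites, the log2 change was -0.38 ± 0.14 (SE) on its more intense probe and -1.12 ± 0.17 on the other. The remaining 47 probes had changes between -1.04 and 0.32 on the log2 scale. None of the 49 probes passed limma's test after Benjamini-Hochberg adjustment over all 13713 probes, where 0 probes passed in either direction (percent called 0). At an unadjusted p under 0.05, 0 of the 49 were higher and 2 were lower, both of PSMC6. These are 0% and 4.08% of the member probes, against 6.86% and 5.97% of all probes kept. The interval of a probe, not adjusted for the number of probes, gives the changes that the spread among these samples allows. That spread may be technical. For 44 of the 49 probes (89.8%) the 95% interval of the log2 change lay inside -1 to 1 (2-fold), against 88.3% of all probes. It lay inside -0.5 to 0.5 for 26 of them (53.1%), against 35.4% of all probes. Member probes also varied less between arrays of a group than probes in general, with a median SE of the log2 change of 0.13 against 0.16. Their median log2 intensity was 11.75 against 9.16 over all probes kept, and the part of brightness in this was not tested.

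**Figure D1:**
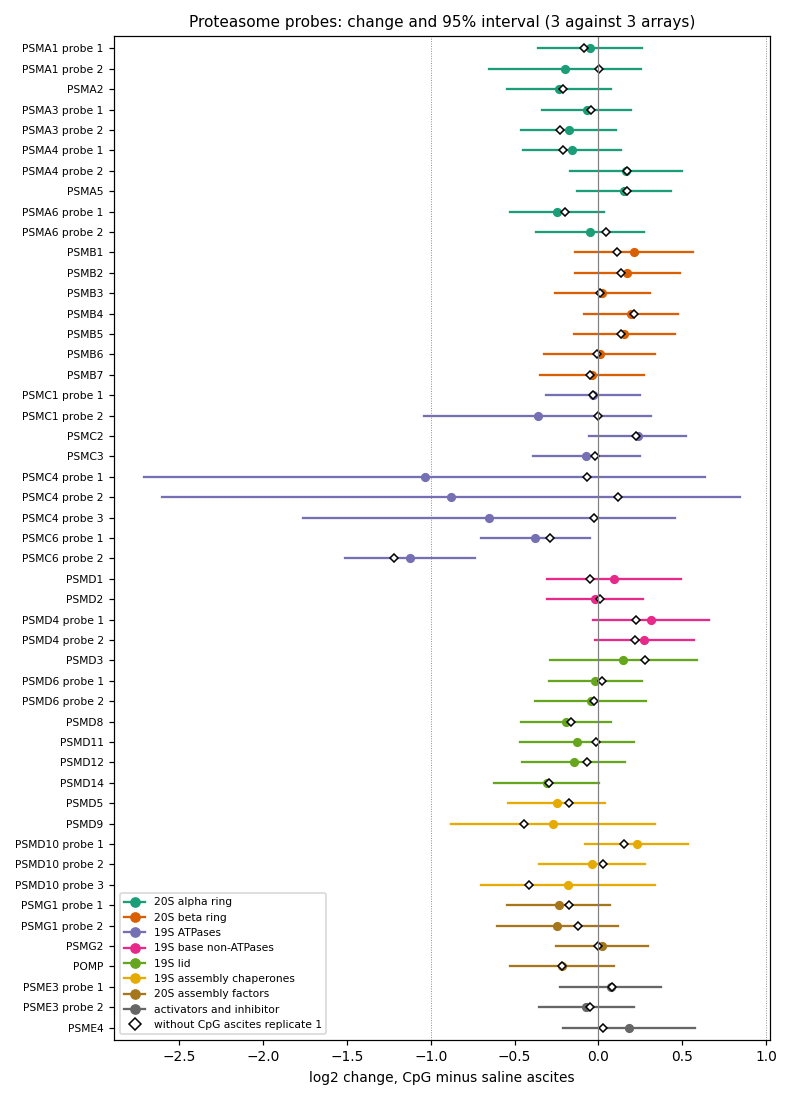
Log2 change (CpG minus saline ascites) of the 49 proteasome probes, with the 95% interval of limma as a bar and the value without CpG ascites replicate 1 as a diamond; dotted lines mark a 2-fold change. Both probes of PSMC6 lie below 0 with and without that array, while the diamonds of PSMC4 and of PSMC1 probe 2, whose intervals over all arrays are wide, lie near 0.

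The regions before the start sites of the ATPase genes PSMC6 and PSMC4 are shown. PSMC4 was low on a single CpG array, and its groups overlapped on every probe. With them are the regions of the genes that, like PSMC6, had lower values in CpG ascites without overlap of the groups on a probe. PSMA6 has 2 windows in the table, for different starts. Each is the 250 bases before the gene's start in RefSeq (GRCh38.p14), written 5′ to 3′ on the gene's strand. Capitals mark the CCAAT box (CCAAT), to which the factor NF-Y binds, and the core of the antioxidant response element (TGACNNNGC), both searched on both strands.
PSMC6, chr14:52706950-52707199, plus strand: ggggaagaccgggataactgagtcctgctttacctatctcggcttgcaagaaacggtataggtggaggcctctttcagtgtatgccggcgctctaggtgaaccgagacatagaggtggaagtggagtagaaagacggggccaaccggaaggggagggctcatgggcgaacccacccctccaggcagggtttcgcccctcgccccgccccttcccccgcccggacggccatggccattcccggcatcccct
PSMC4, chr19:39970915-39971164, plus strand: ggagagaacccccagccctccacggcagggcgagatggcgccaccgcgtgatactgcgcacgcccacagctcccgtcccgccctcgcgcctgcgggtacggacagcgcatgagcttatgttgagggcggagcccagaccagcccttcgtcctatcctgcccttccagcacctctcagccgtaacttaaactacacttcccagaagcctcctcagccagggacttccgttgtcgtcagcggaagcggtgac
PSMA6, start 1, chr14:35292067-35292316, plus strand: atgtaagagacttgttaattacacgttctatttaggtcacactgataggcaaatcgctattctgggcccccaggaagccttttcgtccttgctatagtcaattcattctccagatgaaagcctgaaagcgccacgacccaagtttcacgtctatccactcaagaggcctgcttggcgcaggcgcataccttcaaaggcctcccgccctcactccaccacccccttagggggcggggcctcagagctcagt
PSMA6, start 2, chr14:35292132-35292381, plus strand: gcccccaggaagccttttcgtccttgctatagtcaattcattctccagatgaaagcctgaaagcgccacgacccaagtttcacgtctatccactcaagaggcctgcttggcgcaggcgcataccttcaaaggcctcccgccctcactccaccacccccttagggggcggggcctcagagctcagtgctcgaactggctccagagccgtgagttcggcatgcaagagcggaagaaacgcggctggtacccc
PSMD8, chr19:38374321-38374570, plus strand: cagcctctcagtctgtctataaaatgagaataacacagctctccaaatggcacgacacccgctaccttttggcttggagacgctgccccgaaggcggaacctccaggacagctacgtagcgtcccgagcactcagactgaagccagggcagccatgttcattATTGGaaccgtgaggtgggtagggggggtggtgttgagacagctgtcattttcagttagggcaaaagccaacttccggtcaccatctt
PSMD14, chr2:161308175-161308424, plus strand: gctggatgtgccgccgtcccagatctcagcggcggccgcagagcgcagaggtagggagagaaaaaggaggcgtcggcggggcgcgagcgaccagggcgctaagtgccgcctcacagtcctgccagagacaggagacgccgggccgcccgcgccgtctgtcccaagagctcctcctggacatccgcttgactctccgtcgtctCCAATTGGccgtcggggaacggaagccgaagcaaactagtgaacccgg
PSMD5, chr9:120842923-120843172, minus strand: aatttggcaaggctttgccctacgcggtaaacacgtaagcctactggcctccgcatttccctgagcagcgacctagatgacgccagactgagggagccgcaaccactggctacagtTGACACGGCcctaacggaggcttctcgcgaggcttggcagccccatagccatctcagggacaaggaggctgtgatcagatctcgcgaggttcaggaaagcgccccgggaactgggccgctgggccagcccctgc
POMP, chr13:28658880-28659129, plus strand: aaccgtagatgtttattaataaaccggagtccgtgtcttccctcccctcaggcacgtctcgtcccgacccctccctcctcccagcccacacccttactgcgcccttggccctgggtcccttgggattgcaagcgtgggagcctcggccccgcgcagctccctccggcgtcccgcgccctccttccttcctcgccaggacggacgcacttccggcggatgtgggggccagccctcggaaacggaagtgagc
Neither motif was in the PSMC6, PSMC4 or POMP window or in either window of PSMA6. In PSMD8 the capitals are a CCAAT box on the opposite strand. In the PSMD14 window the capitals are a CCAAT box that overlaps its own reverse complement, and in PSMD5 they are an element core that runs from base 134 to base 126 before the start. RefSeq held 43 such windows for 35 of the 40 genes. These 35 are not the same as the 35 genes measured, since they include PSMC5 and PSMD7, which had no probe. The element core was in 10 of the 43 windows (23.3%), against 10.9% of all 35114 windows, and the CCAAT box in 17 (39.5%), against 32% of all. These are matches of letters only.

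CpG ascites replicate 1 stood apart from the other arrays and decides several values below. Its correlation with the others across all probes kept was 0.948 to 0.958, while the other 5 arrays correlated at 0.978 to 0.992. There 189 of 13713 probes (1.38%) were over 4-fold lower than the saline mean, and 0 (percent called 0) were over 4-fold higher. Mean probe intensity ran from 587 to 788 per array, and 13303 to 13835 probes per array were above background. Of 6 epithelial marker genes 4 were above background (CDH1, EPCAM, KRT18 and KRT19), and of 6 Müllerian and ovarian carcinoma markers 3 were (FOLR1, PAX8 and SOX17). KRT8 was above background on no array. Both KRT18 probes were above background on 5 of the 6 arrays, and on CpG ascites replicate 1 they were 2.74 and 1.91 below the saline mean on the log2 scale. The log2 intensities of all epithelial marker probes, those below background included, summed to 62.3 there and to 63.8 to 65.3 on the other arrays. The sums for Müllerian and ovarian carcinoma (88.7 against 90.7 to 94.4) and mesothelial markers (42.3 against 47.1 to 49.9) were also lowest there. So was the leukocyte sum (57.4 against 57.6 to 58.7), but not the fibroblast or endothelial sum. On CpG ascites replicate 1 the EPCAM probes differed from the saline mean by 0.01 and -0.11, and the KRT8 probe by 0.87. The PAX8 probes differed there by 0.48, -0.04 and -1.71. The part of these markers in the results was not tested. Of the endothelial markers VWF was kept and of the mesothelial markers UPK3B. Of the leukocyte and fibroblast markers 0 were kept, and PTPRC and COL1A1 were above background on no array.

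The 19S ATPases form the ring that unfolds substrates, and 5 of the 6 genes were measured by 9 probes. The more intense PSMC6 probe (ILMN_1655316) had log2 intensities of 11.53, 11.52 and 11.50 in saline ascites and 10.97, 11.10 and 11.36 in CpG ascites. Its other probe (ILMN_2096759) had 8.63, 8.65 and 8.45 in saline ascites and 7.64, 7.58 and 7.14 in CpG ascites. On both probes every CpG array lay below every saline array. The probes disagreed in size, by 0.75 on the log2 scale, the only gap over 0.5 among the 12 member genes with several probes when all 6 arrays were used. With limma, the adjusted p was 0.345 for the more intense probe (95% interval -0.70 to -0.05) and 0.116 for the other (-1.51 to -0.74). Without CpG ascites replicate 1 the dimmer probe passed and fell by 1.22 ± 0.16 (SE, adjusted p 0.0490). It was then the only member among the 18 probes called lower (0.131% of all probes) and the 3 called higher (0.0219%). The more intense probe did not pass there, at -0.29 ± 0.13 with an adjusted p of 0.361.

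PSMC4, another gene of the ATPase ring, had a low value on a single array, and on all of its probes. Probe 1 (ILMN_1687887) had log2 intensities of 12.09, 12.01 and 11.92 in saline ascites and 9.03, 11.99 and 11.89 in CpG ascites. Probe 2 (ILMN_2395389) had 11.78, 12.05 and 11.92 against 9.04, 12.07 and 12.00, and probe 3 (ILMN_2287888) 11.67, 11.49 and 11.74 against 9.72, 11.55 and 11.67. On CpG ascites replicate 1 the probes were 2.98, 2.88 and 1.91 below the saline mean on the log2 scale, while replicates 2 and 3 lay at the saline level. Over 3 arrays the log2 changes were -1.04 ± 0.72, -0.88 ± 0.74 and -0.65 ± 0.48 (SE), with adjusted p of 0.562, 0.633 and 0.583 in limma. Without that array they were -0.07 ± 0.13, 0.12 ± 0.13 and -0.03 ± 0.14. Among the 363 genes with at least 3 probes kept, 3 genes (0.826%) had every probe more than 2-fold below the saline mean on that array: PSMC4, RBM4 and UPK3B. This count was chosen after the values of PSMC4 were seen. The sources used here do not say whether the 3 probes share sequence.

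PSMC1 had a low value on the same array on 1 of its 2 probes. Probe 2 had 12.57, 12.61 and 12.71 in saline ascites and 11.55, 12.75 and 12.50 in CpG ascites, while probe 1 had 13.19, 13.25 and 13.38 against 13.24, 13.18 and 13.31. Across the whole set, 4 of the 49 probes (8.16%) were more than 2-fold below the saline mean on CpG ascites replicate 1, against 5.08% of all probes, and they were the 3 probes of PSMC4 and this one. PSMC2 had 12.15, 11.89 and 11.95 in saline ascites and 12.25, 12.20 and 12.24 in CpG ascites, higher on every CpG array by a narrow margin, with a log2 change of 0.23 ± 0.12 (SE; adjusted p 0.466 in limma). PSMC3 was at -0.07 ± 0.14. With 1 probe a gene, the median log2 change of the 5 ATPase genes was -0.07, and it ran from -0.16 to -0.02 with 1 array left out.

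**Figure D2:**
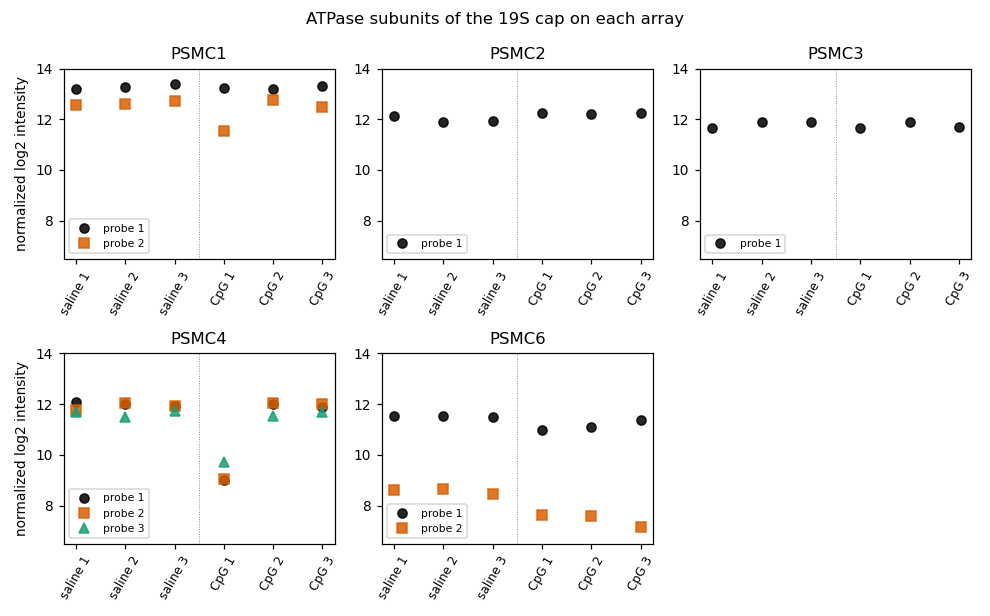
Normalized log2 intensity of the 5 measured ATPase genes on each of the 6 arrays, with a symbol per probe (probe 1 is the most intense) and a dotted line between saline and CpG ascites. PSMC6 is lower on all CpG arrays on both probes, while PSMC4 is low on CpG 1 alone, on 3 of 3 probes.

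The alpha ring, whose subunits gate the core, had lower values for 5 of its 6 measured genes, against 4455 of all 9211. Here and for the groups below 1 probe stands for a gene, the one with the highest mean intensity. The median log2 change was -0.11, against 0.01 over the 9211 genes measured. PSMA6 had 13.97, 13.94 and 13.90 in saline ascites and 13.59, 13.81 and 13.67 in CpG ascites, lower on every CpG array. Its log2 change was -0.25 ± 0.12 (SE; adjusted p 0.435 in limma), but its second probe had -0.05 ± 0.14 with overlapping groups. PSMA5 went the other way, with 12.60, 12.72 and 12.80 against 12.83, 12.92 and 12.83, a change of 0.15 ± 0.12. PSMA2 had a log2 change of -0.23 ± 0.13, PSMA4 -0.16 ± 0.13, PSMA3 -0.07 ± 0.11 and PSMA1 -0.05 ± 0.13. The second PSMA4 probe had the opposite sign, at 0.16 ± 0.14. None of these had an unadjusted p under 0.05.

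In the beta ring 6 of 7 genes had higher values in CpG ascites, against 4756 of all 9211 genes measured. The median log2 change was 0.15, and again none had an unadjusted p under 0.05. The count includes values near 0, with PSMB6 at 0.01 ± 0.14 (SE). With median scaling in place of the quantile step, PSMB6 was at -0.02 and PSMB3 at -0.01. PSMB5 encodes the chymotrypsin-like catalytic subunit. It had log2 intensities of 12.65, 12.75 and 12.59 in saline ascites and 12.86, 12.93 and 12.66 in CpG ascites, with overlapping groups. PSMB6, the caspase-like subunit, had 13.34, 13.24 and 13.05 against 13.25, 13.36 and 13.05. PSMB7, the trypsin-like subunit, had 12.92, 13.09 and 13.22 against 13.06, 12.94 and 13.12. The groups overlapped for all 3 catalytic genes, and the 95% intervals of the log2 change were -0.15 to 0.46 for PSMB5, -0.33 to 0.34 for PSMB6 and -0.35 to 0.27 for PSMB7. Among the subunits without a catalytic site, PSMB4 had 11.90, 11.85 and 12.05 in saline ascites and 12.10, 12.10 and 12.19 in CpG ascites, without overlap. Its log2 change was 0.20 ± 0.12 (SE; adjusted p 0.523 in limma). PSMB1 had 0.21 ± 0.15, PSMB2 0.17 ± 0.14 and PSMB3 0.02 ± 0.12.

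Interferon gamma induces PSMB8, PSMB9 and PSMB10, which replace the catalytic subunits in the immunoproteasome, and the PSME1 and PSME2 activators. PSMB10 had 11.93, 11.84 and 11.87 in saline ascites and 12.20, 12.24 and 12.24 in CpG ascites. Every CpG array lay above every saline array, with a log2 change of 0.35 ± 0.11 (SE), an unadjusted p of 0.0166 and an adjusted p of 0.298 in limma. PSMB8, named after its values were seen, was low on CpG ascites replicate 1 on all 3 probes kept. They were 1.02, 2.55 and 0.81 below the saline mean there on the log2 scale. The probe at 2.55 was above background on 5 of the 6 arrays, and had 6.29 on CpG ascites replicate 1. Without that array the changes of the 3 probes were 0.17 ± 0.12, 0.05 ± 0.14 and 0.03 ± 0.15 (SE). PSMB9 was above background on no array. PSME1 had 0.13 ± 0.14 and PSME2 0.14 ± 0.13. Of the 6 probes kept for the 4 inducible genes measured, 1 was higher at an unadjusted p under 0.05, against 6.86% of all probes kept. After adjustment 0 passed.

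**Figure D3:**
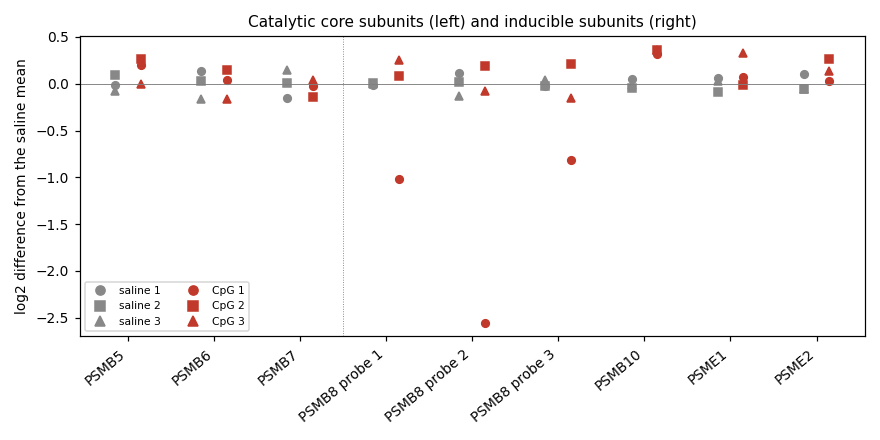
Difference of each array from the saline mean (log2) for the catalytic core genes PSMB5, PSMB6 and PSMB7, left of the dotted line, and the inducible genes, right of it; grey marks saline and red CpG ascites, with 1 shape per replicate. PSMB10 is above the saline arrays on all CpG arrays, and the 3 PSMB8 probes are low on CpG 1, by 0.81 to 2.55. The PSMB8 probe at 2.55 was above background on 5 of the 6 arrays.

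The base of the cap also holds scaffold and ubiquitin-binding subunits. PSMD4, a ubiquitin receptor, had higher values on both probes. Probe 1 had 11.91, 11.89 and 11.62 in saline ascites and 12.31, 11.97 and 12.09 in CpG ascites, and probe 2 had 11.37, 11.21 and 11.34 against 11.69, 11.44 and 11.61. The groups did not overlap on either probe, with log2 changes of 0.32 ± 0.15 and 0.27 ± 0.13 (SE; adjusted p 0.423 and 0.421 in limma). Without CpG ascites replicate 1 both were at 0.22. The scaffold genes PSMD1 and PSMD2 had log2 changes of 0.09 ± 0.17 and -0.02 ± 0.12, with overlapping groups.

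In the lid, 5 of 6 measured genes had lower values in CpG ascites, against 4455 of all 9211 genes measured. The median log2 change was -0.14, or -0.04 without CpG ascites replicate 1. PSMD14 encodes the metalloprotease that cuts ubiquitin chains off the substrate. It had 12.51, 12.61 and 12.56 in saline ascites and 12.23, 12.43 and 12.10 in CpG ascites, lower on every CpG array. Its log2 change was -0.31 ± 0.13 (SE), with an unadjusted p of 0.0516 and an adjusted p of 0.391 in limma. It was -0.30 ± 0.14 without CpG ascites replicate 1. The lid subunit gene PSMD8 had 11.84, 11.93 and 11.86 in saline ascites and 11.62, 11.70 and 11.72 in CpG ascites, also without overlap, with a change of -0.19 ± 0.11. The structural subunit genes PSMD12, PSMD11 and PSMD6 had -0.15 ± 0.13, -0.13 ± 0.15 and -0.02 ± 0.12. PSMD3 had 0.15 ± 0.19, and 3 further probes of PSMD12 were above background on no array.

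Assembly factors do not remain in the finished particle. POMP, a chaperone of beta ring assembly, had 13.47, 13.34 and 13.68 in saline ascites and 13.29, 13.25 and 13.32 in CpG ascites. All CpG arrays lay below the saline arrays, with a log2 change of -0.22 ± 0.13 (SE; adjusted p 0.518 in limma). PSMG1, which with PSMG2 starts the alpha ring, had -0.24 ± 0.13 and -0.24 ± 0.16 on its 2 probes, with overlapping groups, and PSMG2 had 0.02 ± 0.12. Of the chaperones that assemble the cap's ATPase ring, PSMD5 had 9.78, 9.82 and 9.76 in saline ascites and 9.39, 9.58 and 9.65 in CpG ascites. It was lower on every CpG array, by a log2 change of -0.25 ± 0.13 (adjusted p 0.448). PSMD9 had -0.27 ± 0.26, with a wide spread among saline arrays, from 6.79 to 7.60. PSMD10, also called gankyrin, had probes of both signs, at 0.23 ± 0.13, -0.04 ± 0.13 and -0.18 ± 0.22. On the first of these the CpG arrays had 11.52, 11.33 and 11.25 against 11.22, 11.03 and 11.17, without overlap.

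The alternative activators PSME3 (PA28 gamma) and PSME4 (PA200) open the core without ubiquitin. PSME3 had log2 changes of 0.07 ± 0.13 and -0.07 ± 0.12 (SE) on its 2 probes. PSME4 had 11.45, 11.58 and 11.50 in saline ascites and 12.01, 11.65 and 11.42 in CpG ascites, so that CpG ascites replicate 1 was high and replicate 3 lay below all saline arrays. Its log2 change was 0.18 ± 0.17, and 0.03 ± 0.13 without replicate 1.

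Over all 49 probes, the groups did not overlap at 6 with higher values (12.2%) and 7 with lower values (14.3%) in CpG ascites. The shares over all probes kept were 10.9% and 9.82%. With median scaling in place of the quantile step, 4 member probes were higher and 9 lower without overlap, against 9.72% and 10.7% of all probes. Nothing particular to the members is read from these counts. The 13 probes belonged to 11 genes: PSMA5, PSMB4, PSMC2, PSMD4 and PSMD10 on the higher side and PSMA6, PSMC6, PSMD8, PSMD14, PSMD5 and POMP on the lower side. With 1 probe a gene, 15 of the 35 genes had higher and 20 had lower values, with a median log2 change of -0.03. Over all 9211 genes 4756 were higher and 4455 lower, with a median of 0.01.

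The genes of each part of the particle were also averaged on each array. The beta ring was 0.16, 0.08 and 0.08 above the saline mean on CpG ascites replicates 1, 2 and 3, and the saline arrays lay between -0.03 and 0.04. The alpha ring was at -0.11, -0.02 and -0.18, with saline arrays from -0.03 to 0.04. The 20S assembly factors were at -0.17, -0.14 and -0.13, with saline arrays from -0.08 to 0.09. CpG and saline arrays did not overlap for the beta ring and the assembly factors, and they overlapped for the alpha ring. The ATPases were at -0.70 on replicate 1, where PSMC4 was low, and at -0.05 and -0.02 on the other CpG arrays. The saline arrays lay from -0.01 to 0.01, also without overlap but by a narrow margin on replicates 2 and 3. On those 2 CpG arrays PSMC6 was at -0.42 and -0.16, and PSMC2 at 0.21 and 0.24. PSMC1, PSMC3 and PSMC4 lay from -0.12 to 0.07 there. The base without its ATPases, the lid, the cap chaperones and the activators overlapped. Over all single probes kept, the groups did not overlap at 10.9% with higher and 9.82% with lower values. No such share was computed for means of gene groups. The values by part are descriptions with no test, and no difference between parts of the particle was tested.

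**Figure D4:**
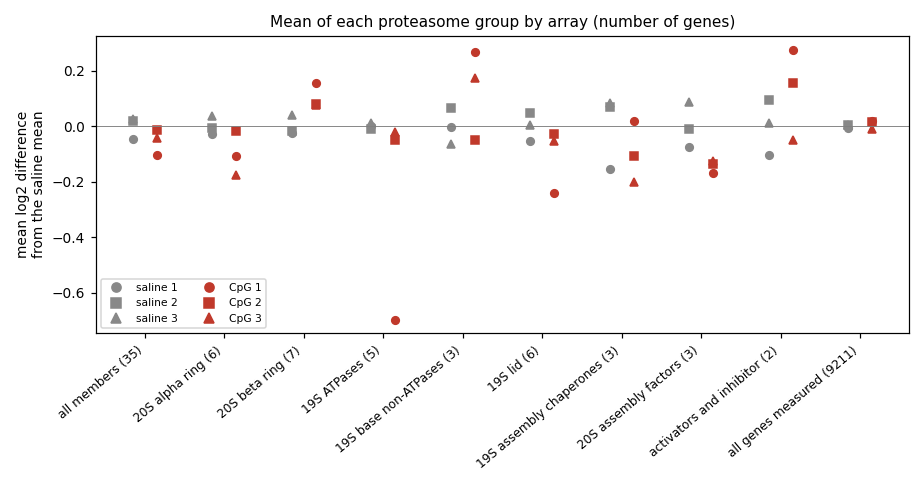
Mean log2 difference from the saline mean for each group of proteasome genes on each array, with grey for saline and red for CpG ascites and 1 shape per replicate; the number of genes is in parentheses. The ATPases on CpG 1, at -0.70, lie apart from every other value, and the other proteasome groups lie between -0.24 and 0.28.

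Genes that act around the proteasome had few low p-values. NFE2L1, the regulator named above, had 11.10, 11.16 and 11.25 in saline ascites and 11.52, 11.29 and 11.44 in CpG ascites, higher on every CpG array, with a log2 change of 0.25 ± 0.13 (SE; adjusted p 0.449 in limma). It had the smallest p of the 8 regulator genes measured, of which 0 had an unadjusted p under 0.05, and their median log2 change was -0.04. Among 12 other proteasome-bound proteins and chaperones 0 had such a p. The smallest was that of TXNL1, a thioredoxin-like protein bound to the cap, at -0.32 ± 0.14, and the median was 0.05. For 9 genes of ubiquitin, its activating enzymes and its shuttle proteins the count was also 0 and the median 0.08. There the activating enzyme gene UBA1 had 0.39 ± 0.18. Of 12 genes of the p97 unfoldase and its cofactors 1 had an unadjusted p under 0.05, and the median was 0.07. It was NSFL1C, the p97 cofactor p47, with 8.55, 8.44 and 8.50 in saline ascites and 9.23, 8.85 and 9.03 in CpG ascites, all CpG arrays above all saline arrays. Its log2 change was 0.54 ± 0.14, with an unadjusted p of 0.00511 and an adjusted p of 0.231 in limma. Counted by probe, 0 of 10 for the regulators and 0 of 16 for the proteasome-bound proteins had an unadjusted p under 0.05 in limma. The counts were 0 of 12 for ubiquitin, its enzymes and shuttles, and 1 of 15 for p97 and its cofactors. For comparison, 12.8% of all probes kept had such a p in either direction.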

How the data were processed

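Per the labels' protocols, Trizol extraction was followed by column clean-up and DNase, and cRNA labelled with biotin was hybridised to Illumina bead arrays. Arrays were summarised with BeadStudio, per the submitters' processing notes; the sources used here give no version. The deposited intensity of each probe was not normalized, and a detection p-value per probe and array stood beside it, per the file headers. A second deposited table holds the authors' processed intensity for 48803 probes, on a linear scale with a median of 121 on every array and ranks equal to those of the first (Spearman 1). How the authors made it is not given here. It was used as an alternative.

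Intensities were corrected and normalized with neqc of limma 3.58.1 (R 4.3.3), with background inferred from the detection p-values and an offset of 16, and taken to log2. Groups, taken from the titles, were compared with lmFit and eBayes over all probes kept, two-sided, with Benjamini-Hochberg adjustment and a threshold of 0.05. Of the probes kept, 11833 had 1 symbol; 13 probes on the array had several, and none was named from these. Every member was named; values on each array were fixed for probes with an unadjusted p under 0.05, PSMC6, the catalytic genes and genes whose probes differ by over 0.5. From each related list up to 2 genes with such a p, or the gene with the smallest p, were named, and NFE2L1. Genes whose groups did not overlap, PSMC4, PSMC1, PSMB8, PSMD9 and PSME4 were given array values after these were seen. The members and lists were chosen with earlier results of these data known. In simulated data of 13713 independent probes for this comparison, 59% of changes by a log2 of 1 and 93% of changes by 2 were recovered, with 10 false calls. There 100 probes were changed by each amount, and the adjustment depends on how many change. Each simulated probe had the same spread on all arrays, and no array stood apart as CpG ascites replicate 1 did. The shares recovered therefore need not hold for these data. The number of arrays limits the precision.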

Additional observations from a re-analysis of the deposited data

How the results depend on the processing

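The median log2 change of all 35 genes stayed between -0.05 and -0.02 with 1 array left out. The count of all probes called was 1 with no background correction and with the authors' processed values, 14 with a mean-variance trend, and 0 to 21 with 1 array left out (21 without CpG ascites replicate 1); no proteasome probe was among them except PSMC6 probe 2 without CpG ascites replicate 1. Over the settings run, the change of that probe ran from -1.22 to -0.82 and its adjusted p from 0.0490 to 0.574. Proteasome probes higher at an unadjusted p under 0.05 numbered 2 with no background correction (6.65% of all probes were so), 2 with the authors' values (6.67%), 2 with no filter on dim probes (4.49%), 3 with the trend (6.64%), and 0 to 2 with 1 array left out (3.52% to 9.76%). Those lower numbered 3 with normexp background correction, with none, with median scaling, with the authors' values and with probes detected on all 6 arrays. The shares of all probes there were 6.14% to 6.64%. Lower proteasome probes numbered 4 with no filter (3.66%), 4 with the trend (6.28%) and 1 with the replicate block (5.11%). With 1 array left out they numbered 1 to 4 (3.49% to 8.06%). There were 4 without CpG ascites replicate 2 (PSMA2, PSMA6, PSMC6 and PSMD14, against 7.14% of all probes) and 1 without saline ascites replicate 2 or 3. Of the 49 probes, 9 to 12 were lower without overlap with 1 array left out, against 12.7% to 16.9% of all probes. Those higher numbered 6 to 8, against 14.3% to 20.2%. The shares over all probes rise as fewer arrays are compared. Without CpG ascites replicate 1, 10 of the 49 (20.4%) were lower, against 15.6% of all probes, and 6 (12.2%) were higher, against 16.4%. Leaving out 1 array gave medians from -0.23 to -0.13 for the 20S assembly factors, from -0.190 to -0.0402 for the lid (-0.0402 without CpG ascites replicate 1), from 0.10 to 0.15 for the beta ring and from -0.25 to -0.12 for the cap chaperones. With a gene's kept probes averaged, the median of the ATPases was -0.20, against -0.07 with 1 probe a gene and -0.16 to -0.02 with 1 array left out. The labels do not say that a replicate number marks a shared mouse or day, so the numbers were not taken to pair samples. Deviations of same-numbered arrays from their group means correlated at -0.10, 0.01 and -0.02. Those deviations sum to 0 within each group of 3 arrays, so the correlations cannot settle pairing. The replicate block changed no call. The block by chip was not run, since the column names give no chip.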
